A study of Mus musculus with 12 samples.

Results

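The genes described here encode core and regulatory pre-mRNA splicing factors: the SR proteins (Srsf genes), the heterogeneous nuclear ribonucleoproteins (Hnrnp genes), the Sm and U1 and U2 snRNP proteins (Snrp genes), the SF3A and SF3B subunits (Sf3a and Sf3b genes) and the pre-mRNA processing factors (Prpf genes). They were picked by symbol, as genes whose single symbol in the platform annotation begins with one of these family names. The families were chosen with earlier results of these data known. Each gene was read from 1 probe set, the one with the highest mean over the 12 arrays. There were 59 such genes among 18193 measured: 10 SR, 19 hnRNP, 9 Sm and U1 or U2 snRNP, 9 SF3 and 12 PRPF genes. Hnrnpa3, Snrpa, Snrpd1, Snrpd2 and Hnrnpa1l2-ps2 are matched only by probe sets that carry several symbols and were not analysed here.

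The arrays came from mouse NIH3T3 cells, an established fibroblast line with contact inhibition of growth, infected with virus carrying a control vector, Yap, Tead2-VP16 or Tead2-EnR. Tead2 is a DNA-binding transcription factor and Yap a coactivator that binds Tead proteins; VP16 activates transcription, and EnR, from Engrailed, represses it. There were 6 groups of 2 arrays each. Control cells were harvested at 30% confluency (low density) and when completely confluent, Tead2-EnR cells at 30% of their own confluency, Tead2-VP16 cells at complete confluency, and both Yap and Tead2-VP16 cells while still proliferating, just past the density at which normal cells are confluent (called high density here). No control group was harvested at that high density, so in comparisons of those cells with either control the vector and the density cannot be told apart. Tead2-EnR cells at 30% of their own confluency, and Tead2-VP16 cells at complete confluency, need not have the same cell density as control. There too the vector and the density cannot be told apart. The labels do not say that the 2 arrays of a group were separate cultures, so p-values measure only the spread between these arrays, and in such bulk RNA fewer cells of a kind and less RNA per cell cannot be told apart. The promoter that drives the transgenes is not given in the sources used here.

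Splicing is carried out by the spliceosome. The U1 snRNP recognises the 5′ splice site, SF1, U2AF and the U2 snRNP with its SF3A and SF3B complexes recognise the branch site, and the U4/U6.U5 tri-snRNP, which holds several PRPF proteins, then joins. Each of U1, U2, U4 and U5 carries a ring of Sm proteins. SR proteins bind exonic sequences and mostly promote the use of nearby splice sites, whereas hnRNPs coat nascent RNA and often repress sites; the transcripts of many SR and hnRNP genes are themselves spliced in alternative ways that limit their own level.

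All values below are log2 intensities, and all differences are log2 fold changes of the first group minus the second, unless another scale is named. Levels of 57 of the 59 genes lay above that of the median gene (6.87). The exceptions were Srsf12, at a mean of 2.47, and Snrpn, the Sm protein of neurons and of an imprinted locus, at 6.53. Across genes, arrays of the same group had an r of 0.9976 to 0.9986, and the median gap between them over the splicing genes was 0.032 to 0.058 by group. The largest gap was 0.45, for the dim Srsf12 in Tead2-EnR cells. The probe set of Tead2 was at 9.62 and 9.63 in low-density control and 9.82 and 9.84 in Tead2-EnR, but 9.23 and 9.41 in Tead2-VP16 cells at high density. The brightest probe set of Yap1 was at 9.79 and 9.83 in low-density control and 9.62 and 9.69 in Yap cells. Whether these probe sets read the vectors' transcripts is not given in the sources used here, so they do not check the labels. All 7 measured fibroblast markers were above the median gene in every group, against 0 of 5 endothelial, 1 of 7 epithelial, 1 of 4 muscle, 3 of 6 macrophage and 2 or 3 of 6 neural markers.

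The first comparison asked how the splicing genes differed with cell density under the same control vector. They were mostly lower in confluent cells: 41 of 59 were lower and 5 higher (limma, adjusted p below 0.05), when 22.8% of all genes were called lower and 26.1% higher. Their median difference was -0.50, against -0.01 over all genes. Of the 59, 7 were at least 2-fold lower (5.19% of all genes) and 1 at least 2-fold higher (5.77% of all genes). Low-density control was the group with the highest mean for 47 of the 59 (79.7%, against 31% of all genes). Tead2-VP16 at complete confluency was the lowest group for 22 (37.3%, against 21.3% of all genes). The proliferation markers moved with density as well, since all 9 measured were lower (median -2.41) and their summed intensity went from between 28900 and 29600 to between 6010 and 6270. Of the 7 fibroblast markers 5 were higher and 1 lower, with sums of 97700 to 98900 against 66800 to 68200. Epcam (1.255) of the epithelial and Lyz2 (1.23) of the macrophage markers were higher. Krt8 (-0.22), Cd14 (-0.69), Tubb3 (-1.87) and Myod1 (-0.50) of the epithelial, macrophage, neural and muscle markers were lower. No endothelial marker was called. The actin control's 3′ minus 5′ difference was 0.076 and 0.085 in low-density and 0.222 and 0.246 in confluent control. The 15 poly-A spike control probe sets had means of 7.08 and 7.19 in low-density and 7.35 and 7.44 in confluent control. The part of the markers and of these controls in the result was not tested.

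**Figure D1:**
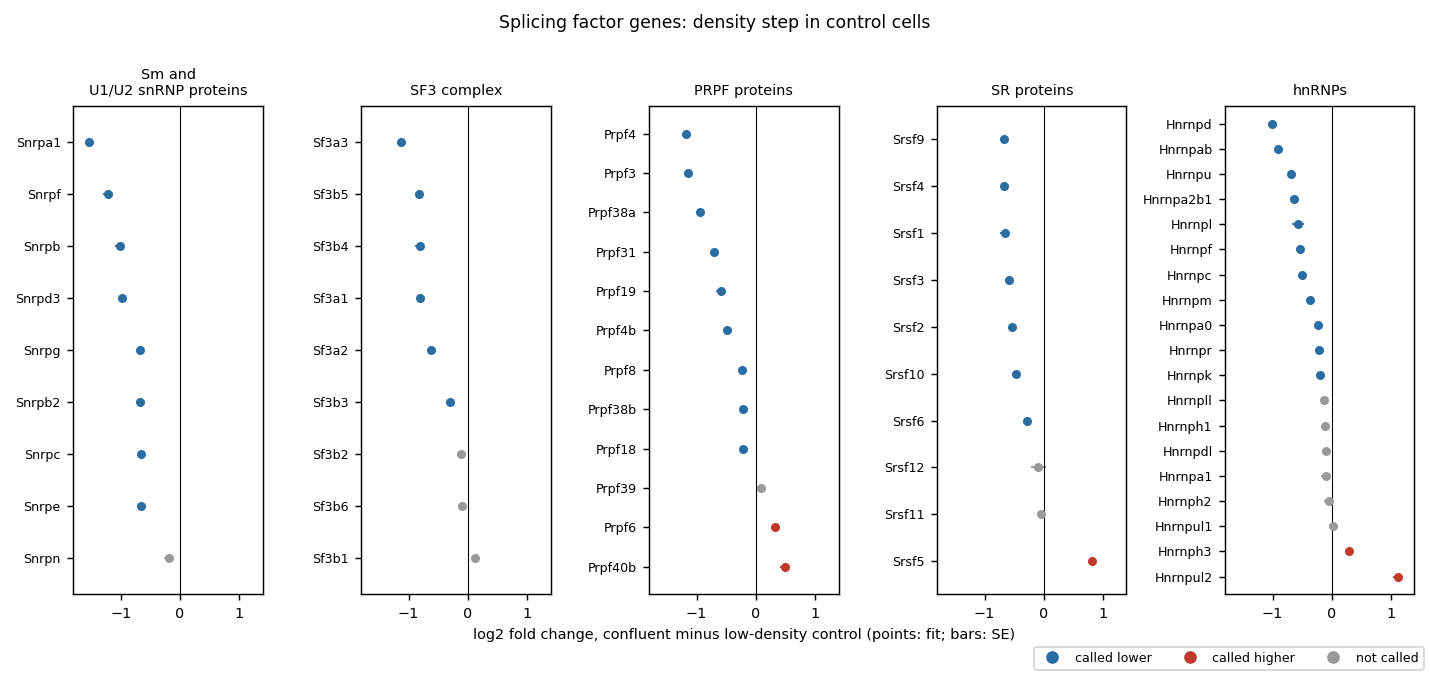
Log2 fold change of each of the 59 genes, confluent minus low-density control (x axis), with the SE of the fit, by class. Blue points were called lower, red called higher and grey not called; 41 points are blue and 5 red, with Snrpa1 lowest (-1.53) and Hnrnpul2 highest (1.12).

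To show the start of genes that fell and of one that rose, the bases before the start sites were read from RefSeq's mouse promoters (GRCm38.p6), which hold 53 of the 59. The most upstream start was used, with the 250 bases before it, on both strands. Shown are the 150 bases that end just before the start of 3 genes among the largest falls and of Srsf5, the SR gene that rose, written 5′ to 3′ along the gene, with the matched motifs below in capitals on either strand.
Snrpa1, chr7:66060186-66060335, plus strand: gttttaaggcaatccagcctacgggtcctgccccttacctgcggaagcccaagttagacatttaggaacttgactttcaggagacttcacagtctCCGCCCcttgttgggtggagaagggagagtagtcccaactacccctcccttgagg
Prpf4, chr4:62408633-62408782, plus strand: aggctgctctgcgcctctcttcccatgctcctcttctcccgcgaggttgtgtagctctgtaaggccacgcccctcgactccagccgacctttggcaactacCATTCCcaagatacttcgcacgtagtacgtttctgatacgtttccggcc
Sf3a3, chr4:124714711-124714860, plus strand: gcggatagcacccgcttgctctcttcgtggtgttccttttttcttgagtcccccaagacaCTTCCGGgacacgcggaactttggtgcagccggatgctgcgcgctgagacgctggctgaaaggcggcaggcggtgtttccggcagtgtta
Srsf5, chr12:80945349-80945498, plus strand: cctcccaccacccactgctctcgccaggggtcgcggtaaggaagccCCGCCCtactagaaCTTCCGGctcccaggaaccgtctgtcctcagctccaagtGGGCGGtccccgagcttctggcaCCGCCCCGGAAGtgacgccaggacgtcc

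In these windows Snrpa1 has 1 match to the Sp1 letters GGGCGG, Prpf4 has 1 to the Tead letters GGAATG, and Sf3a3 has 1 to the Ets letters CCGGAAG. Srsf5 has 3 Sp1 and 2 Ets matches, of which the pair nearest the start overlap by 1 base. Across the 53 promoters the Ets letters were found in 16 (30.2%, against 7.07% of 27025 mouse promoters), the Sp1 letters in 34 (64.2%, against 33%) and CCAAT, the Nfy letters, in 26 (49.1%, against 34.5%). The longer Nrf1 motif was in 7 (13.2%, against 3.87%) and the E2f letters TTTCCCGC in 3 (5.66%, against 0.929%). The Myc E-box CACGTG was in 3 (5.66%, against 6.04%) and the Tead letters in 5 (9.43%, against 12.6%), those of Hnrnpl, Prpf3, Prpf4, Sf3a1 and Snrpb2. Split by the call with density, 37 of the 53 were lower and 16 were not. The Sp1 letters were in 54.1% of the lower and 87.5% of the others, the Ets letters in 32.4% and 25%, the Nfy letters in 51.4% and 43.8%, and the Nrf1 motif in 13.5% and 12.5%. The E2f letters were in 5.41% and 6.25%, the Myc E-box in 2.7% and 12.5%, and the Tead letters in 5 of 37 (13.5%) and 0 of 16. The members' windows were richer in G and C (median 59.6%, against 52%), and the windows they were set beside were not matched for base composition. These are matches of letters and not measured sites.

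The proteins of the Sm ring and of the U1 and U2 snRNPs were lower in 8 of 9 cases with density and higher in none (median -0.68). Over all genes 22.8% were called lower and 26.1% higher. Snrpa1, the U2 A′ protein that binds the U2 RNA with Snrpb2, had the largest fall of the 59. Its levels were 10.75 and 10.80 in low-density control, 10.09 and 10.11 in Tead2-EnR, 9.43 and 9.49 in Yap cells, 9.53 and 9.38 in Tead2-VP16 at high density, 9.21 and 9.15 in Tead2-VP16 at complete confluency, and 9.22 and 9.28 in confluent control. Both low-density control arrays were above every other array, and both Tead2-EnR arrays lay between them and the rest. Snrpa1 fell by 1.53 ± 0.06 with density (SE; 2.89-fold; adjusted p = 2.6e-08, limma), and its other probe sets gave -1.45 and -1.49.

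Snrpf, the Sm F protein, stood at 11.29 on both low-density control arrays and at 10.06 and 10.07 on the confluent ones, a fall of 1.22 ± 0.07 (SE; adjusted p = 2.8e-07, limma). Its remaining arrays read 10.72 and 10.61 (Tead2-EnR), 10.35 and 10.28 (Yap), 10.42 and 10.43 (high-density Tead2-VP16) and 10.22 and 10.43 (Tead2-VP16 at complete confluency), so confluent control was the lowest group without overlap. Snrpb, which encodes the Sm B and B′ proteins, was at 12.46 and 12.42 in low-density and 11.34 and 11.51 in confluent control (-1.02 ± 0.08, SE). Snrpd3, the Sm D3 protein, was at 11.50 and 11.54 in low-density and 10.55 and 10.53 in confluent control (-0.98), but its 2 dimmer probe sets gave 0.34, called higher, and -0.00, not called. Snrpg, Snrpb2, Snrpc (the U1 C protein) and Snrpe fell by between 0.66 and 0.68. Snrpn was at -0.19 and not called.

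Of the SF3 complex, the part of the U2 snRNP that holds the branch site, 6 of 9 genes were lower and none higher (median -0.63). The shares over all genes were 22.8% lower and 26.1% higher. Sf3a3, a subunit of SF3A, was at 10.70 and 10.77 in low-density control and at 9.64 and 9.56 in confluent control (-1.13 ± 0.06, SE; adjusted p = 1.9e-07, limma). Its levels in the other groups were 10.17 and 10.24 (Tead2-EnR), 9.94 and 9.96 (Yap), 9.71 and 9.84 (high-density Tead2-VP16) and 9.66 and 9.65 (Tead2-VP16 at complete confluency), again with low-density control highest and Tead2-EnR next without overlap. Sf3b5, a small SF3B subunit, went from 10.90 and 10.94 to 10.09 and 10.11 (-0.82), and Sf3b4, Sf3a1 and Sf3a2 fell by 0.82, 0.81 and 0.63. Sf3b3 fell by 0.31. Sf3b1, the large scaffold of SF3B that is mutated in some human cancers, was at 0.12, Sf3b2 at -0.12 and Sf3b6, which contacts the branch-site adenosine, at -0.10, and none of them was called.

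Among the PRPF genes 9 of 12 were lower and 2 higher (median -0.36), when 22.8% of all genes were called lower and 26.1% higher. The largest falls were in Prpf4 and Prpf3, whose products bind each other in the U4/U6 snRNP. Prpf4 went from 9.70 and 9.55 to 8.40 and 8.48 (-1.18 ± 0.07, SE; adjusted p = 2.4e-07, limma), and Prpf3 from 9.03 and 9.14 to 7.863 and 8.003 (-1.15 ± 0.07, SE; adjusted p = 3e-07, limma). Prpf38a, a factor needed to activate the spliceosome, fell by 0.94. Prpf31, a U4/U6 protein mutated in a form of retinitis pigmentosa, fell by 0.71 on its brightest probe set and by 2.27 on its other, and Prpf19, the ubiquitin ligase of the complex named after it, fell by 0.59. Prpf8, the U5 protein at the catalytic centre, fell by 0.23. The 2 that rose were Prpf40b, a U1-associated protein, from 6.84 and 6.93 to 7.46 and 7.28 (0.49 ± 0.07, SE), and Prpf6, a bridge within the tri-snRNP, from 9.22 and 9.26 to 9.56 and 9.58 (0.33 ± 0.05, SE).

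Of the 10 SR genes, 7 were lower with density and 1 was higher (median -0.50). Over all genes 22.8% were called lower and 26.1% higher. Srsf4 went from 10.024 and 10.002 to 9.31 and 9.38 (-0.67 ± 0.05, SE; adjusted p = 2e-06, limma). Srsf9 fell by 0.67, Srsf1, the founding member of the family, by 0.65, Srsf3 by 0.59, Srsf2 by 0.53, Srsf10 by 0.47 and Srsf6 by 0.27. Srsf11 was at -0.04 and not called, although another of its 4 probe sets rose by 0.92. Srsf12 was near the lowest levels on the array and not called.

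Srsf5 was the SR gene that rose. Its levels were 12.003 and 12.071 in low-density control, 12.21 and 12.26 in Tead2-EnR, 12.21 and 12.29 in Yap, 11.87 and 11.85 in Tead2-VP16 at high density, 12.61 and 12.77 in Tead2-VP16 at complete confluency and 12.84 and 12.88 in confluent control. Both completely confluent groups were above all other arrays, and Tead2-VP16 at high density was the lowest. With density in control cells Srsf5 rose 1.77-fold (0.82 ± 0.06, SE; adjusted p = 2.3e-06, limma).

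Of the hnRNP genes 11 of 19 were lower, 2 higher and 6 not called (median -0.22, from -1.01 to 1.12). Over all genes 22.8% were called lower and 26.1% higher. The top of that hnRNP range is Hnrnpul2, whose direction depends on the probe set. Hnrnpd (AUF1, which also binds AU-rich elements in mRNA) was at 11.31 and 11.25 in low-density and 10.27 on both arrays of confluent control (-1.01 ± 0.08, SE; adjusted p = 1.8e-06, limma). Hnrnpab went from 13.23 and 13.11 to 12.24 and 12.30 (-0.90 ± 0.06, SE; adjusted p = 4.5e-07, limma). Hnrnpu, a nuclear scaffold protein, fell by 0.69, Hnrnpa2b1 by 0.63, Hnrnpl by 0.57, Hnrnpf by 0.53 and Hnrnpc, which packages nascent RNA, by 0.50. Hnrnpr fell by 0.22, but was not called without the first low-density control array (-0.19) or the second confluent array (-0.16). With quantile normalization repeated Hnrnpr was at -0.095 and not called, and with only the arrays compared it was not called either. Hnrnpa1, Hnrnph1, Hnrnph2, Hnrnpdl, Hnrnpul1 and Hnrnpll lay between -0.14 and 0.02 and were not called.

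Hnrnpul2 had the largest rise of the 59, from 8.73 and 8.46 to 9.73 and 9.69 (1.12 ± 0.08, SE; 2.18-fold; adjusted p = 1.2e-06, limma), with 8.99 and 9.04 in Tead2-EnR, 9.43 and 9.40 in Yap, 9.38 and 9.45 in Tead2-VP16 at high density and 9.66 and 9.68 in Tead2-VP16 at complete confluency. Low-density control was below every other array. The other probe set of Hnrnpul2, only a little dimmer (8.72, against 9.30), fell by 0.35, so the direction for the gene depends on the probe set. Hnrnph3 rose by 0.29, from 8.76 and 8.71 to 9.02 on both arrays.

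**Figure D2:**
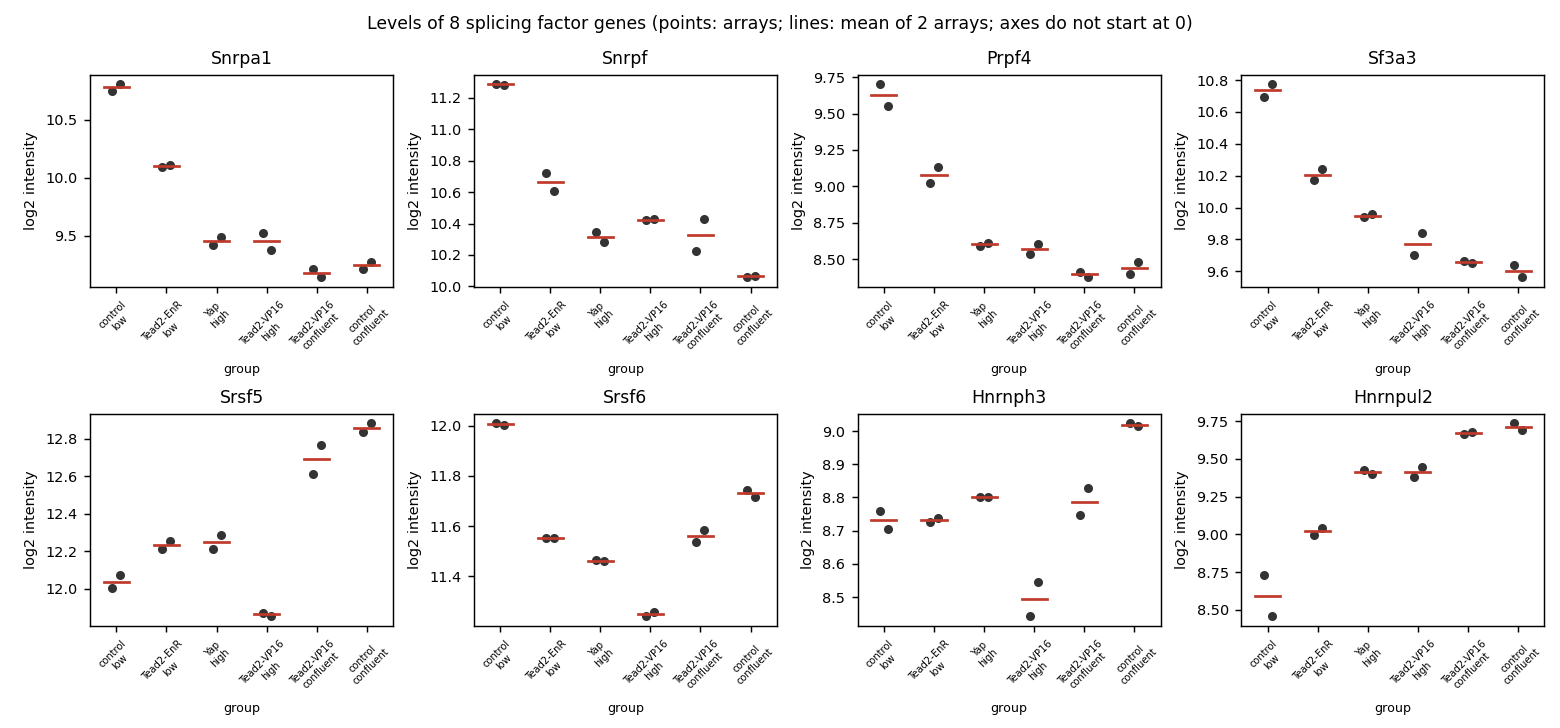
Log2 intensity (y axis, not starting at 0) of 8 splicing factor genes on the 2 arrays of each group (points) with the group mean (line). Snrpa1, Snrpf, Prpf4 and Sf3a3 are highest in low-density control, whereas Srsf5 is highest in confluent control and lowest in Tead2-VP16 cells at high density (11.87 and 11.85).

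Probe sets of one gene did not all read the same way. Of the 43 genes with several, 13 had the same call on all their probe sets in the density comparison, 24 had some called and some not, and 6 had probe sets called in opposite directions: Hnrnpab, Hnrnpl, Hnrnpr, Hnrnpul2, Prpf38b and Snrpd3. For Hnrnpab 6 of 7 probe sets were lower and 1 was higher (0.29), and for Hnrnpl the dim second probe set was higher (0.42). For Hnrnpr a dim probe set (5.87) was higher (0.32). With the mean of all its probe sets Prpf38b turned from -0.21 to 0.08 and was not called, while the means of Hnrnpl (-0.08) and Hnrnpr (-0.09) kept their sign and were not called either.

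**Figure D3:**
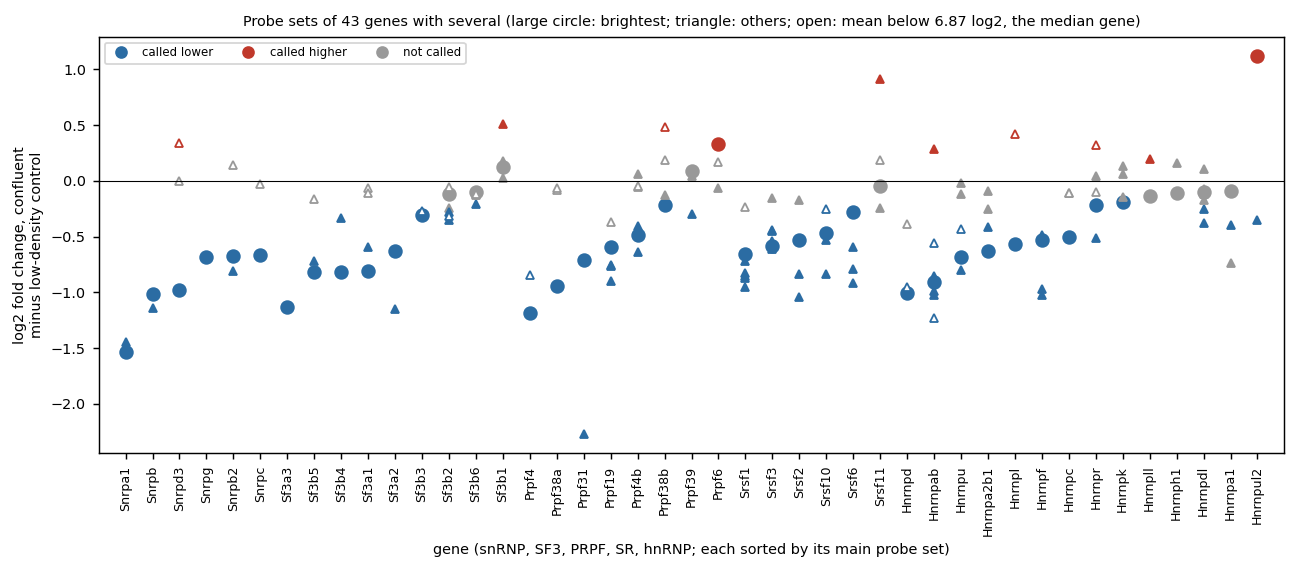
Log2 fold change with density in control cells (y axis) of every probe set of the 43 genes that have several (x axis). Large circles are the brightest probe set, triangles the others and open symbols those with a mean below 6.87; 6 genes have probe sets called both lower (blue) and higher (red).

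Genes of the same pathway outside the symbol rule were read in 6 lists of 121 further genes, of which 109 were measured. These lists were also drawn up with earlier results of these data known. With density in control cells 74 of the 109 were lower and 16 higher, when 22.8% of all genes were called lower and 26.1% higher. Of other core factors 30 of 34 were lower and 3 higher, with Phf5a, the small protein that sits against Sf3b1, at -1.52, and Lsm3 and Lsm6, of the ring on U6, at -1.38 and -1.36. Of snRNP assembly factors 13 of 14 were lower and none higher, among them Gemin5 (-1.66), which recognises snRNA, Smn1 (-1.28), mutated in spinal muscular atrophy in humans as SMN1, and Strap (-1.09). Of helicases 7 of 10 were lower and 1 higher, with Ddx39a at -1.78, Ddx46, of the U2 snRNP, at -0.85 and Dhx15, which takes spliceosomes apart, at -0.70.

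The regulatory lists were more divided, and are set beside 22.8% of all genes called lower and 26.1% called higher. SR kinases and SR-like proteins were lower in 8 of 17 cases and higher in 3, with the SR kinases Clk1 and Clk2 at 1.01 and 0.49 and Pnn at -0.76. Of exon junction and decay factors 2 of 6 were lower (Rbm8a -0.90 and Rnps1 -0.67) and 1 was higher (Upf2 0.32). Of other regulators 14 of 28 were lower and 8 higher. Ptbp1, the polypyrimidine tract repressor, was at -0.98, while Cirbp, a cold-inducible RNA-binding protein, was at 1.88 and Tia1, which helps U1 to weak 5′ splice sites, at 1.54.

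The second comparison set Tead2-EnR cells against low-density control. Each was harvested relative to its own confluency and their cell densities need not be equal, so the vector and the density cannot be told apart here. Most splicing genes were lower: 40 of 59 were lower and 3 higher, when 18.1% of all genes were called lower and 20.3% higher, and the median was -0.29 against -0.01 over all genes. No splicing gene was called with a change of at least 2-fold, when 0.824% of all genes were at least 2-fold lower and 2.48% at least 2-fold higher. This comparison and the density step use the same low-density control arrays. All 9 proliferation markers were lower here as well (median -0.65), with a summed intensity of 20500 to 20800. The macrophage markers summed to 2010 and 2090 in Tead2-EnR and to between 657 and 691 in low-density control, with Lyz2 at 2.74 and Cd14 at 0.61, while Ptprc, Adgre1 and Itgam were below the median gene in both groups. Of the fibroblast markers 5 of 7 were higher and none lower, with sums of 77700 to 78300 against 66800 to 68200. Of the neural markers Tubb3 was lower (-1.53) and Nova1 higher (0.65), and Epcam (0.65) of the epithelial and Tek (0.54) of the endothelial markers were higher, with Tek below the median gene in both groups. None of the 4 muscle markers was called. The actin 3′ minus 5′ difference was 0.168 and 0.139, against 0.076 and 0.085 in control. The poly-A spike controls had means of 7.36 and 7.38, against 7.08 and 7.19 in control. The part of these in the result was not tested.

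By class, the Sm, U1 and U2 proteins were lower in 9 of 9 cases (median -0.37), the PRPF genes in 9 of 12 (-0.32), the SF3 genes in 5 of 9 (-0.40), the SR genes in 8 of 10 (-0.25) and the hnRNP genes in 9 of 19 (-0.17). Over all genes 18.1% were called lower. The largest falls were in Prpf3, at 8.41 and 8.38 against 9.03 and 9.14 (-0.69 ± 0.07, SE), Snrpa1 (-0.68), Snrpf (-0.62) and Sf3a1, a U2 protein at 10.08 and 10.13 against 10.64 and 10.74 (-0.59). Each pair of Tead2-EnR arrays was below both control arrays. Prpf8 fell by 0.45 and Prpf38b by 0.46.

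The 3 genes that rose in Tead2-EnR cells were Hnrnpul2 (0.43), Hnrnpll and Srsf5. Hnrnpll, known for control of CD45 splicing in lymphocytes, was at 11.31 and 11.34 against 11.08 and 11.14 (0.21) and was highest in Tead2-EnR of all 6 groups. It was not called without the first control array (0.19) or the second Tead2-EnR array (0.20). Srsf5 (0.20) was not called when any one of the 4 arrays was left out (0.16 to 0.23). Hnrnpul2 was at 0.12 and not called with the mean of its probe sets. Prpf39 (-0.33), Hnrnpa1 (-0.29), Srsf11 (-0.24) and Snrpn (-0.29) were lower here, and with density they were at 0.09, -0.09, -0.04 and -0.19 and not called.

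Yap and Tead2-VP16 cells at high density were each set against low-density control in comparisons added after seeing the data. With Yap 45 of 59 genes were lower and 3 higher, when 20.2% of all genes were called lower and 22.2% higher, and the median was -0.42. With Tead2-VP16 49 were lower and 2 higher, when 19.5% of all genes were called lower and 23.4% higher, and the median was -0.47. Snrpa1 was at -1.32 in both, and Prpf4 at -1.02 and -1.05. Hnrnpul2 was at 0.82 in both and Prpf40b at 0.33 and 0.32, while Srsf5 was at 0.21 with Yap, not called without the first control array (0.18) or the second Yap array (0.17), and at -0.17, not called, with Tead2-VP16. The other probe set of Hnrnpul2 was lower in both (-0.27 and -0.49), and with the mean of its probe sets the gene was at 0.16 and not called with Tead2-VP16. Probe sets of 7 genes were called both ways with Yap and of 2 with Tead2-VP16. All these comparisons share the low-density control arrays. All 9 proliferation markers were lower in both (medians -2.68 and -2.95), and they summed to 7390 to 7700 with Yap and 6550 to 6800 with Tead2-VP16. The poly-A spike controls had means of 7.25 and 7.36 with Yap, 7.19 and 7.23 with Tead2-VP16 and 7.08 and 7.19 in low-density control. The part of the markers and of these controls in these results was not tested.

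**Figure D4:**
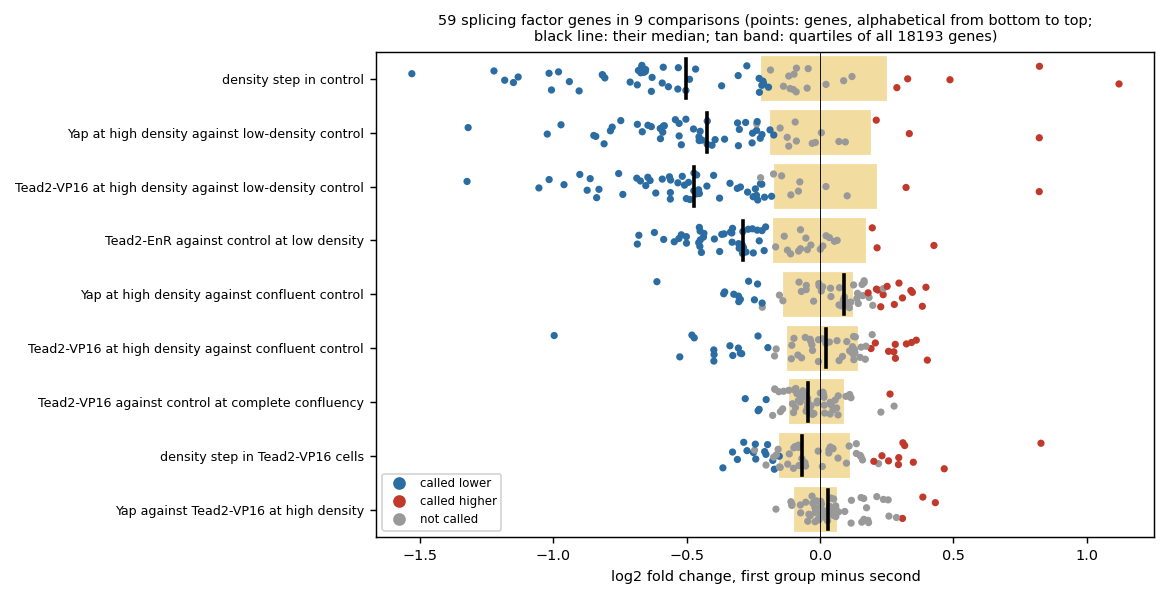
Log2 fold change (x axis) of the 59 genes in 9 comparisons (rows); points are genes, coloured by call, black lines their median, and tan bands the quartiles of all genes. The medians lie at -0.50, -0.42, -0.47 and -0.29 in the 4 comparisons with low-density control, and between -0.07 and 0.09 in the other 5.

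Set against confluent control, Yap cells at high density had 13 splicing genes higher and 11 lower, when 11.7% of all genes were called higher and 14.5% lower (median 0.09). Without the first array of either group 14 genes were called in all, and without the second of either 15. This comparison and the density step use the same confluent arrays. Of the 9 proliferation markers 4 were higher and 2 lower (median 0.016), with a summed intensity of 7390 to 7700 against 6010 to 6270, although the labels call the Yap cells proliferating. The largest were Snrpd3, at 10.96 and 10.91 against 10.55 and 10.53 (0.40), Hnrnpab, at 12.66 and 12.63 against 12.24 and 12.30 (0.38), Sf3a3 (0.35) and Sf3b4, at 10.82 and 10.94 against 10.46 and 10.61 (0.34). The arrays of the 2 groups did not overlap for these genes, though Sf3b4 was not called without the second Yap array (0.28) or the first confluent array (0.27). The largest falls were in Srsf5 (-0.61), Prpf8, at 11.06 and 11.08 against 11.47 and 11.39 (-0.36), Sf3b1, at 11.05 and 11.06 against 11.44 and 11.40 (-0.36), and Prpf6, at 9.20 and 9.28 against 9.56 and 9.58 (-0.32).

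With Tead2-VP16 at high density, relative to confluent control, 10 splicing genes rose and 14 fell, when 13.2% of all genes were called higher and 13.7% lower (median 0.02). Srsf5 was the most reduced, by 0.997 ± 0.06 (SE; adjusted p = 5.3e-06, limma). Hnrnph3 stood at 8.44 and 8.54 against 9.02 on both confluent arrays (-0.53 ± 0.06, SE; adjusted p = 0.00011, limma). Srsf6 stood at 11.24 and 11.26 against 11.74 and 11.72 (-0.48), but its 3 other probe sets lay between -0.11 and -0.05 and were not called. Srsf11 was at 10.41 and 10.31 against 10.84 and 10.82 (-0.47), and 2 of its 3 other probe sets were also lower. Hnrnpa1, Hnrnpr and Prpf39 each fell by 0.40. Of the SR genes 4 were lower and none higher.

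The genes that rose in that comparison were led by Hnrnpab (0.40), Snrpf (0.36), Snrpb (0.34) and Sf3b5 (0.32). Hnrnpab was at 12.65 and 12.69, Snrpb at 11.75 and 11.78 and Sf3b5 at 10.43 and 10.42 in these cells, above both confluent arrays in each case. Snrpb was not called without the second Tead2-VP16 array (0.33) or the first confluent array (0.26). Of the 7 probe sets of Hnrnpab 5 were higher, 1 was lower (-0.50) and 1 was not called. Of the 9 proliferation markers 3 were higher and 3 lower (median -0.011), with a summed intensity of 6550 to 6800 against 6010 to 6270, although the labels call these cells proliferating too.

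Yap and Tead2-VP16 cells at high density were then compared directly. The 3 splicing genes called (limma) were all higher with Yap, when 0.934% of all genes were called higher and 1.08% lower (median 0.03). Snrpd3 was at 10.96 and 10.91 against 10.43 and 10.58 (0.43 ± 0.07, SE; adjusted p = 0.013, limma), Srsf5 was at 0.39 and Hnrnph3, at 8.80 on both Yap arrays, was at 0.31. The arrays did not overlap for any of the 3, which adds no support, since they were picked by their call. None of the 3 was called without the first Tead2-VP16 array or without either Yap array, and without the second Tead2-VP16 array Srsf5 (0.38) was not called. The dimmer probe sets of Snrpd3 were at -0.04 and 0.23 and not called.

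Tead2-VP16 cells were also harvested at complete confluency, which gives a density step with one vector, from high density to complete confluency. Here 14 splicing genes were lower and 10 higher, when 12.4% of all genes were called lower and 12.1% higher (median -0.07). This step starts from cells past normal confluency, and its difference from the step in control cells was not tested. Without the first array of either group 11 genes were called, and without the second Tead2-VP16 array at high density 13. Srsf5 rose by 0.83 ± 0.06 (SE; adjusted p = 3.3e-05, limma), followed by Hnrnpa1, from 10.21 and 10.47 to 10.80 and 10.81 (0.47), Hnrnpr, from 10.50 and 10.64 to 10.91 and 10.93 (0.35), and Srsf11, from 10.41 and 10.31 to 10.64 and 10.71 (0.32). With the mean of its probe sets Hnrnpa1 was at 0.45 and not called.

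The largest falls in Tead2-VP16 cells were in Hnrnpab, from 12.65 and 12.69 to 12.28 and 12.33 (-0.36), Sf3b4, from 10.86 and 10.78 to 10.40 and 10.58 (-0.33), Prpf3, from 8.21 on both arrays to 7.96 and 7.84 (-0.31), and Srsf9, from 10.73 on both to 10.53 and 10.36 (-0.29). The groups did not overlap for these genes. Another probe set of Hnrnpab was higher (0.38), 5 of its 7 were lower and 1 was not called. Sf3b4 was not called without the first array of either group (-0.29 and -0.24), Prpf3 without the second confluent array (-0.25), and Srsf9 without either high-density array or the second confluent one (-0.29 to -0.20). Of the 109 measured genes in the 6 lists 17 were higher and 18 lower in this step, when 12.1% of all genes were called higher and 12.4% lower. The SR kinases and SR-like list had 5 of 17 genes called, all higher. Core factors outside the rule had 7 of 34 lower and 1 higher, and snRNP assembly factors 5 of 14 lower and 2 higher.

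At complete confluency Tead2-VP16 and control cells differed in few splicing genes: 1 was higher and 4 lower, when 5.06% of all genes were called higher and 4.92% lower (median -0.05). Their cell densities need not be equal, so the vector and the density cannot be told apart here. With arrays centred on their medians 3 were higher and 1 lower. Sf3b3 was at 10.41 and 10.43 against 10.70 on both control arrays (-0.28 ± 0.05, SE; adjusted p = 0.0066, limma). Hnrnph3, at 8.75 and 8.83 against 9.02 on both (-0.23), Hnrnpll, at 10.73 and 10.76 against 10.96 and 10.99 (-0.23), and Sf3b1, at 11.18 and 11.25 against 11.44 and 11.40 (-0.20), were the others lower. Snrpf was higher, at 10.22 and 10.43 against 10.06 and 10.07 (0.26). Only 1 gene was called without either control array or the second Tead2-VP16 array, and 2 without the first; Sf3b3 was called in all 4.

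**Figure D5:**
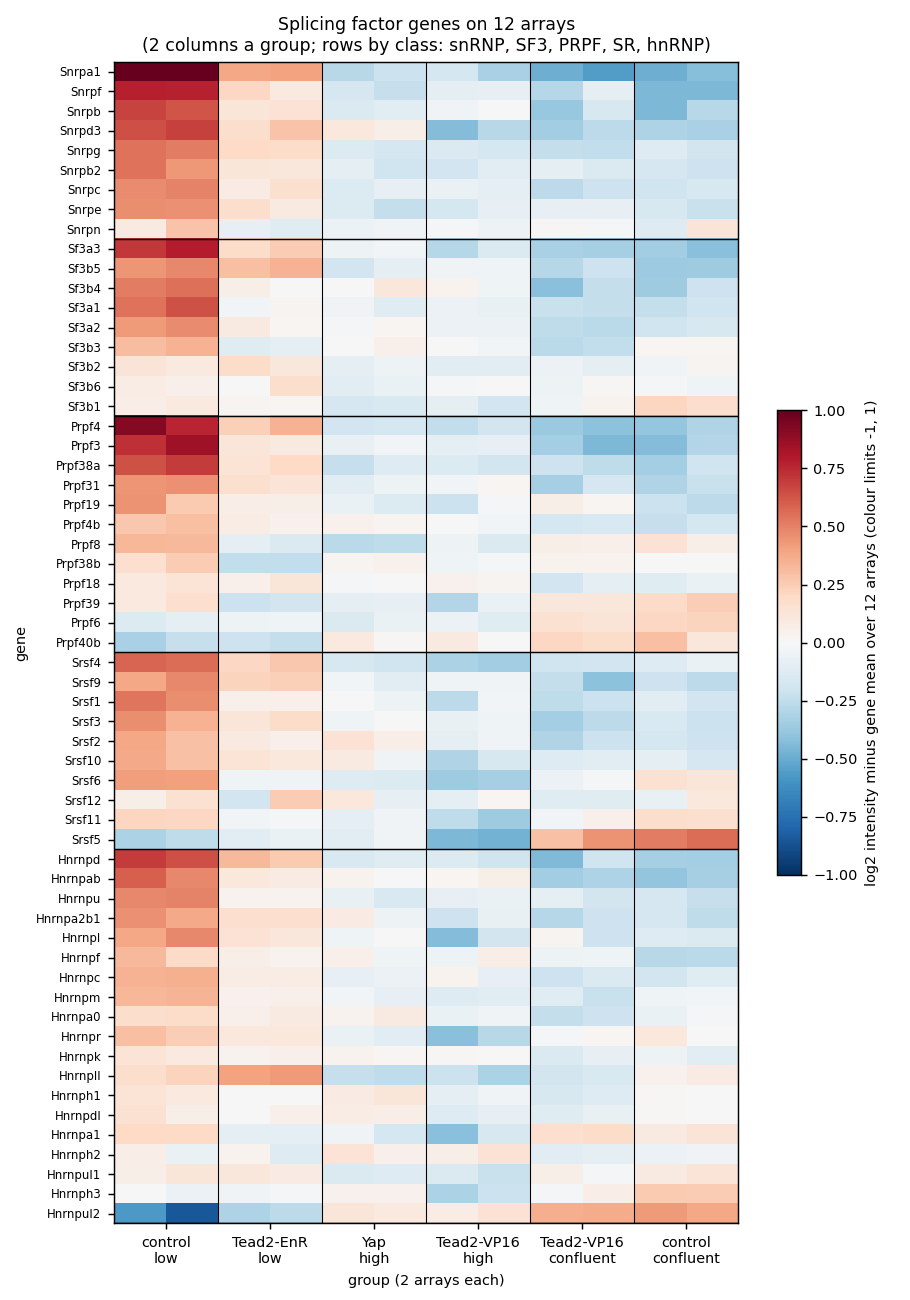
Log2 intensity of the 59 genes (rows, by class) on the 12 arrays (columns, 2 a group), minus each gene's mean over the arrays; colours are clipped at -1 and 1. Low-density control is the highest group for 47 genes, and 2 PRPF rows, Prpf40b and Prpf6, are below their mean there, and Tead2-EnR is between it and the other groups in many rows.

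Across the 59 genes a principal component analysis over the 12 arrays put 81.7% of the variance on its leading axis. It placed low-density control at -3.38 and -3.40, Tead2-EnR at -0.949 and -0.995, Yap at 0.50 and 0.53, Tead2-VP16 at high density at 0.82 and 0.67, and both completely confluent groups between 1.48 and 1.62. The next axis held 9.4% and ran from -1.09 and -0.96 in Tead2-VP16 at high density to 0.82 and 0.76 in confluent control. Hnrnph2, Sf3b6 and Srsf12 were called in none of the 9 comparisons.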

How the data were processed

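Per the labels, biotin-labelled total RNA was measured on 12 Affymetrix arrays. The deposited values are probe set intensities made with RMA, per the submitters' processing notes, which give no version. They ran from 3.77 to 25980, a linear scale, with array medians of 51.9 to 53.7, so log2 was taken. Settings of RMA are not given in the sources used here. The usual quantile step of RMA gives the probes of each array the same distribution before they are summarised. With that step a shift shared by all genes cannot be seen. The summarised values need not share a distribution, and repeated quantile normalization moved some of them.

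Of 45101 probe sets, 34945 had exactly 1 symbol in GEO's platform annotation, 932 had several, 9160 had none and 64 were controls. Entrez identifiers of 34741 matched a mouse gene table (GRCm38.p6), used for names alone, and 0 symbols changed. Each of 18193 genes was read from its brightest probe set by mean log2, with no filter.

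All arrays were fitted with 1 mean per group in limma 3.58.1 (lmFit, contrasts.fit, eBayes; R 4.3.3; 6 residual and 3.45 prior degrees of freedom). All tests are two-sided, with Benjamini-Hochberg adjustment over all genes within each comparison and calls at an adjusted p below 0.05. The fit was also run on simulated data with independent noise and few changed genes. That setting is simpler than these arrays, so it does not vouch for the calls made here.

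Members and lists were chosen with earlier results of these data known. Of 9 comparisons, 2 (Yap and Tead2-VP16 at high density against low-density control) were added after seeing the data. Any member may be named. Array values are given for the 6 largest called falls and 6 largest called rises with density, the 4 largest each way elsewhere, 2 of each class by smallest adjusted p, and others where singled out. Members whose probe sets were called both ways with density are named, and 3 genes of each other list by adjusted p. The alternatives were a filter at the median gene, testing each probe set, averaging a gene's probe sets, leaving out _x_at and _s_at probe sets, a replicate block, a robust prior with a variance trend, repeated quantile normalization, centring on medians, only the arrays compared, and each array left out. Promoters came from RefSeq (GRCm38.p6). Figures used matplotlib 3.10.9 in Python 3.11.15.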

Additional observations from a re-analysis of the deposited data

How the results depend on the processing

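The number of splicing genes called stayed within 1.5 times of the value given under every alternative for the density step in control (46; 44 to 51), Tead2-EnR (43; 33 to 47), Tead2-VP16 at high density against confluent control (24; 16 to 35), Yap against low-density control (48; 40 to 51) and Tead2-VP16 at high density against low-density control (51; 46 to 53). Tead2-VP16 against control at complete confluency (5) gave 13 with the filter and with the variance trend, 1 with every probe set tested, 2 without _x_at and _s_at probe sets, 0 with only the arrays compared and 1 to 2 with an array left out. Yap against confluent control (24) gave 37 with the variance trend and 14 to 15 with an array left out. Yap against Tead2-VP16 (3) gave 10 with the filter, 11 with the variance trend, 0 with only the arrays compared and 0 to 2 with an array left out. The density step in Tead2-VP16 cells (24) gave 11 with only the arrays compared and 11 to 17 with an array left out. Only the arrays compared means fewer arrays for the spread. For the other changes the cause was not tested. The median difference of the splicing genes also moved with the setting. It lay between -0.543 and -0.348 for the density step in control and between -0.462 and -0.249 for Yap against low-density control. Of 910 alternative values of 70 named results, 828 kept direction and call, 81 lost the call and 1 reversed: Prpf38b with density was at 0.081 with the mean of its probe sets. With the replicate number as a block, 43 genes were called for Tead2-EnR, and 3 rather than 5 for Tead2-VP16 at complete confluency. The 15 correlations of same-numbered deviations over all genes lay between -0.061 and 0.101. However, the mean of the poly-A spike controls was higher on array 2 than on array 1 in every group. Whether the numbers pair the arrays was therefore not settled. No detection calls were used, and 2 arrays a group limit the precision (median SE of a log2 fold change 0.061). Arrays also did not overlap for many splicing genes that were not called, so a lack of overlap adds no support to a call.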
